A study of Mus musculus with 4 samples.

Results

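AP-1 transcription factors were described in muscle stem (satellite) cells through 10 genes taken by symbol from the deposited tables of 55487 gene identifiers, of which 27551 passed the expression filter, all 10 among them. They were the Fos family (Fos, Fosb, Fosl1, Fosl2), the Jun family (Jun, Junb, Jund) and 3 related basic leucine zipper genes (Atf3, Batf3, Maff). The cells came from skeletal muscle of Tg:Pax7-nGFP mice, in which a Pax7 transgene puts a green fluorescent protein in the nuclei of satellite cells. Minced muscle was exposed during the initial digestion to a vivo-morpholino, an antisense oligomer that enters cells without transfection, and satellite cells were then isolated for RNA sequencing. The Numb exon 6 morpholino is directed at splicing of that exon in Numb, an adaptor protein that restrains Notch, and the control morpholino served as its reference. Muscle from 2 mice received both, giving 2 Numb exon 6 libraries and 2 control libraries. All 4 share the transgene, the dissociation and the isolation. Sources used here do not give age or sex of the mice. The oligomer met all cells of the minced muscle, not satellite cells alone.

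AP-1 is a dimer of proteins that grip DNA with a basic region and pair through a leucine zipper. Fos proteins need a Jun partner, whereas Jun proteins can also pair among themselves, and Atf3, Batf3 and Maff pair with members of either or of neighbouring families. Fos, Fosb, Jun, Junb and Atf3 are classic early response genes that growth factors, stress and tissue dissociation switch on through MAP kinases, and in muscle AP-1 is known as part of the early response of satellite cells leaving quiescence. The cells here had been taken out of muscle by digestion, and no undigested cells were analysed, so the levels below describe cells after isolation.

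The promoter sequences of the 4 most abundant members with a RefSeq entry are shown because early response promoters are read through short elements near the start. RefSeq windows of 300 bases (GRCm38.p6, 250 before to 50 after a transcription start) covered 9 of the 10 genes in 11 windows, Maff having 3 starts. The Jund window (chr8:70697489-70697788) ends before its 1 annotated transcript, which starts at 70698949, so its letters do not describe that start. Capitals mark the cAMP response element TGACGTCA, its half-site TGACG (contained in the full element), and the variant TGACATCA of the phorbol ester response element, each searched on both strands and printed 5' to 3' on the gene's strand. Junb lies at chr8:84978699-84978998 (minus strand), Fos at chr12:85473640-85473939 (plus), Atf3 at chr1:191183284-191183583 (minus), Jun at chr4:95052173-95052472 (minus), and the second start of Maff, shown for its full element, at chr15:79347270-79347569 (plus).
Junb: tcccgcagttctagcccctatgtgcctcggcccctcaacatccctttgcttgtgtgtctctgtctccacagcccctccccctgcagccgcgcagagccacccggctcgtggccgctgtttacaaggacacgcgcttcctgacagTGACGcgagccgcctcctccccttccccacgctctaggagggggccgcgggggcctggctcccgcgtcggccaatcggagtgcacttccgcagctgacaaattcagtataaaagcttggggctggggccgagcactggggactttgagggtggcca
Fos: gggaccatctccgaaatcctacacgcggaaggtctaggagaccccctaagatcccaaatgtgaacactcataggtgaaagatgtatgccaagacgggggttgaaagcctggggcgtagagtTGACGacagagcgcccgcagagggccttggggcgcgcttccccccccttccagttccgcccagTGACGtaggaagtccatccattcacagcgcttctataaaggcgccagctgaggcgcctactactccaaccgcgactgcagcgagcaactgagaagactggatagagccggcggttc
Atf3: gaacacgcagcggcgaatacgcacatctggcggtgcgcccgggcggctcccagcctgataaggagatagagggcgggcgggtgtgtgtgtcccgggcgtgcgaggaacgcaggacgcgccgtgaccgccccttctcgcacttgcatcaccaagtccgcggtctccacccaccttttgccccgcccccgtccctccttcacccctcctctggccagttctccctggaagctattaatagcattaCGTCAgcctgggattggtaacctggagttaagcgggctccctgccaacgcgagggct
Jun: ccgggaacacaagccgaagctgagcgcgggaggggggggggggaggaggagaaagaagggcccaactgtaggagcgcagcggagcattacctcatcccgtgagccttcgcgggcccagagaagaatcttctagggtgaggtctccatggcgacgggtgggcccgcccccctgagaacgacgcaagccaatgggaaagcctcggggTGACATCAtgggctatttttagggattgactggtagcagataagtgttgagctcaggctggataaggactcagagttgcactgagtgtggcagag
Maff: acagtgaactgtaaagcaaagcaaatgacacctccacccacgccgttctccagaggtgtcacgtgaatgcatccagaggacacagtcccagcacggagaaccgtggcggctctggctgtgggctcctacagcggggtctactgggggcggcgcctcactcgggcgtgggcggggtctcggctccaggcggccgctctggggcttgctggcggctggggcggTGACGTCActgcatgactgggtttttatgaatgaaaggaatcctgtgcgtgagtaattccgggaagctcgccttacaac

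The half-site TGACG stood in 6 of the 11 windows, those of Fos, Fosb, Junb and Atf3 and 2 of Maff, against 20.8% of 32851 promoter windows of the same length. These 6 windows had GC contents of 58.7% to 68.3%, against a median of 52.7% over all windows. The half-site holds a CG, and windows of like GC content were not compared. Fos carried it at -129 to -125 and at -66 to -62, Junb at -106 to -102, Fosb at -60 to -56, and Atf3 on the other strand at -7 to -3. Positions are counted from the RefSeq start, with -1 the base before it. For Junb the annotated gene begins at 84978718, within the window and after that start, so positions from the annotated start would differ. The Atf3 window lies within its annotated gene (chr1:191170296-191218039), not at the outer end of it. The full element was found in the second Maff window alone, at -29 to -22, and in 1.79% of all windows. TGACATCA stood at -45 to -38 in Jun and in the third Maff window, and in 3.62% of all windows. The phorbol ester response element TGACTCA and the CArG box, the element read by serum response factor, were in none of the 11, against 5.2% and 1.63% of all windows. The windows reach no further than 250 bases before a start, so elements upstream of that were not searched. A match is a description of the letters and not a bound site.

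Junb, Fos, Atf3, Jun and Fosl1 ranked within the 383 most abundant identifiers in every library, while Jund and Batf3 were far lower. In TPM, an abundance scaled to transcript length and to a fixed library total, Junb, known to temper the activity of Jun, was the highest, at 1032 and 1529 TPM for mouse 1 and mouse 2 under the Numb exon 6 morpholino and at 718 and 1394 TPM under the control. It ranked between 69 and 162 among all identifiers. Fos followed at 668 and 771 TPM under the Numb exon 6 morpholino and 505 and 522 TPM under the control. Atf3, a stress-induced factor that often represses its targets, stood at 658 and 723 TPM under the Numb exon 6 morpholino and 423 and 609 TPM under the control. Jun itself was the steadiest member, at 504 and 509 TPM under the Numb exon 6 morpholino and 433 and 508 TPM under the control, a range of 1.18-fold.

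Below these, Fosl1, which encodes the transactivation-poor protein Fra-1, averaged 422 TPM (range 348 to 511). Fosb averaged 223 TPM (178 to 305), Maff, a small Maf protein without a transactivation domain, 104 TPM (76.4 to 142), and Fosl2 77.1 TPM (56.8 to 91.0). Jund averaged 33.5 TPM (25.9 to 42.3), ranking no higher than 3084 of all identifiers. Batf3, a factor known from dendritic cells, was near the limit of detection, at 0.564 and 1.18 TPM under the Numb exon 6 morpholino and 0.640 and 1.13 TPM under the control. Its estimated counts were 91 and 127 in the Numb exon 6 libraries and 105 and 178 in the controls. Junb exceeded Fos in all 4 libraries, though their ranges overlapped (Junb from 718 TPM, Fos up to 771 TPM). The neighbours Fos and Atf3, Atf3 and Jun, Jun and Fosl1, and Maff and Fosl2 also had overlapping ranges. In each of these pairs the higher on average led in 3 of 4 libraries. The steps from Fosl1 to Fosb, Fosb to Maff, Fosl2 to Jund and Jund to Batf3 had no overlap.

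**Figure D1:**
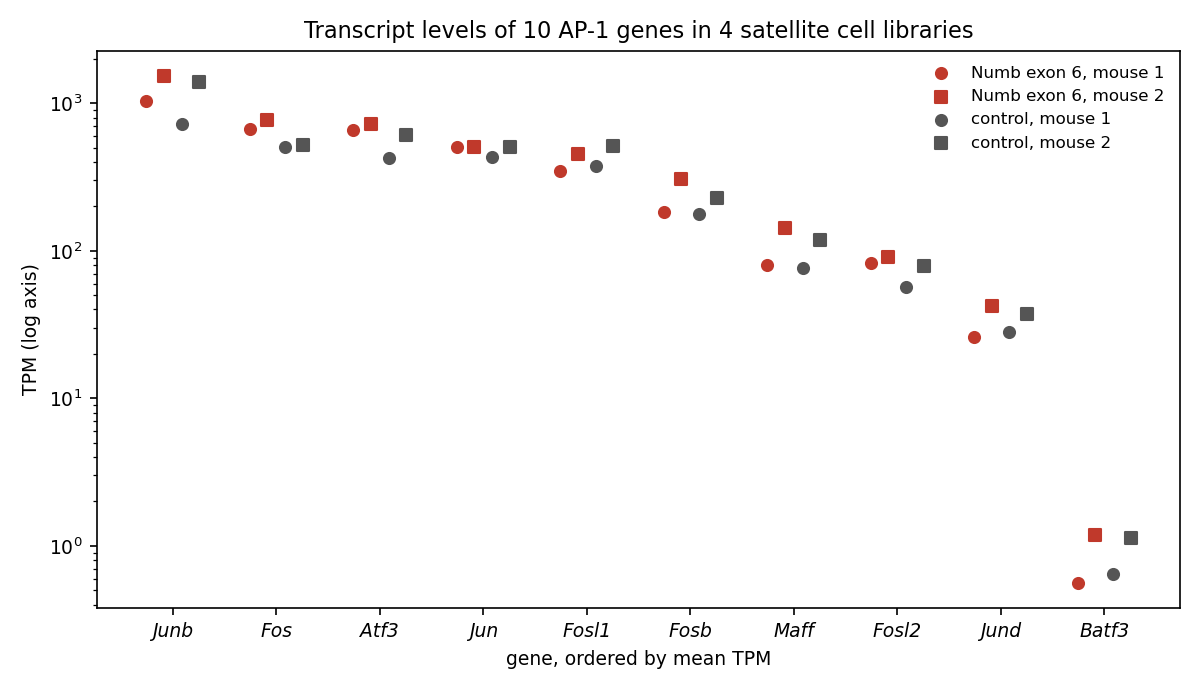
TPM on a log axis of each AP-1 gene in the 4 libraries, genes ordered by mean TPM; circles are mouse 1, squares mouse 2, red the Numb exon 6 and grey the control morpholino. Junb leads at 718 to 1529 TPM, Jun has the narrowest spread, and Batf3 lies at or near 1 TPM.

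Summed TPM put the Fos family at 1281 and 1623 under the Numb exon 6 morpholino and at 1114 and 1338 under the control. The Jun family stood at 1563 and 2081 under the Numb exon 6 morpholino and at 1180 and 1939 under the control. The Jun family sum was larger in each of the 4 libraries, and the ratio of Fos to Jun family was 0.82 and 0.78 under the Numb exon 6 morpholino and 0.944 and 0.69 under the control, so the morpholinos overlapped. Junb made up 66.1% and 73.5% of the Jun family under the Numb exon 6 morpholino and 60.9% and 71.9% under the control. Fos made up 52.1% and 47.5% of the Fos family under the Numb exon 6 morpholino and 45.3% and 39.0% under the control, without overlap, while Fosl1 made up 27.1% and 28.1% in the Numb exon 6 libraries and 33.7% and 38.2% in the controls. These shares were not tested, and those of Fosl1 carry the strand limit given further on. That limit also enters the Fos family sums, the shares of its other members and the ratio to the Jun family.

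**Figure D2:**
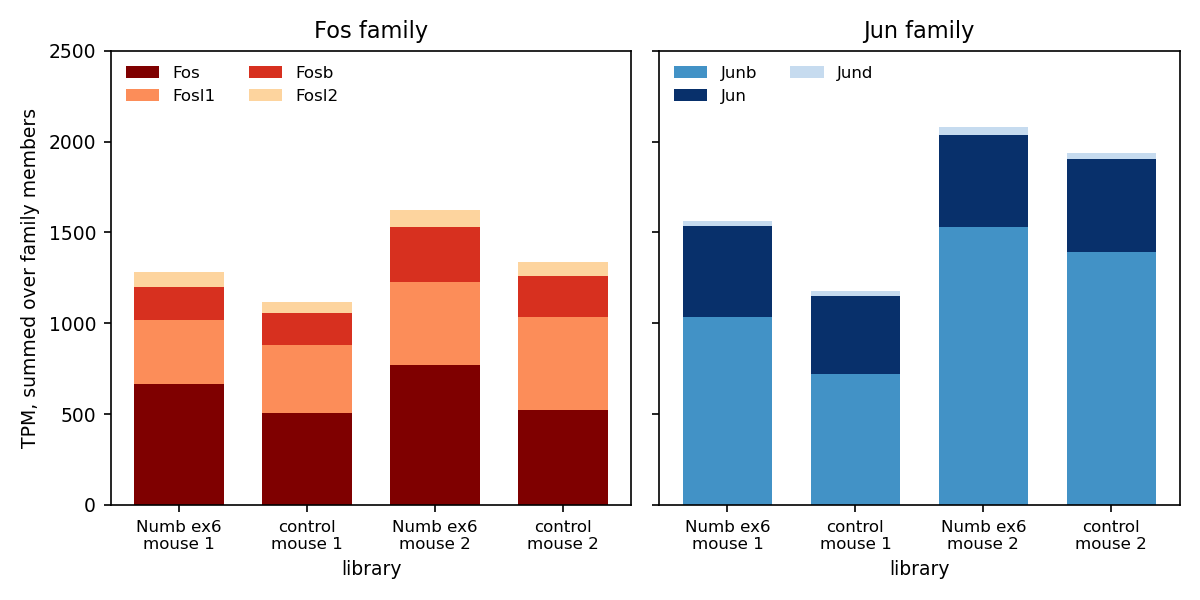
Stacked TPM of the Fos family (left) and the Jun family (right) in each library, from 0. The Jun family sum is the larger in each library, and Junb makes up from 60.9% to 73.5% of it.

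Without a reading of exon 6 splicing itself, the comparison of the morpholinos asked which AP-1 transcripts differ with exposure to the Numb exon 6 morpholino. None of the 10 passed the test over all genes. Levels from here on are CPM, estimated counts scaled to a fixed total with TMM factors, unless given as TPM. Log2 fold changes are edgeR's, positive where the Numb exon 6 libraries were higher, with the SE. In bulk RNA, fewer cells of a type and less RNA per cell cannot be told apart, and all p values measure the spread between these libraries.

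Fos, whose protein is degraded within a short time and whose level tracks recent signalling, stood at 709 and 817 CPM for mouse 1 and mouse 2 under the Numb exon 6 morpholino and at 563 and 562 CPM under the control. Both Numb exon 6 libraries lay above both controls, and the controls of the mice were level. Its fold change was 0.44 ± 0.11 on the log2 scale (SE, n = 2 libraries each), or 1.36-fold, with an edgeR unadjusted p of 0.0112 and an adjusted p of 0.999. With the mouse as a block it was 0.44 ± 0.08 (edgeR adjusted p = 0.796), and DESeq2 with that block gave the smallest adjusted p of any alternative tried, 0.0653. No setting called Fos.

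Fosl2, which encodes Fra-2, stood at 249 and 276 CPM under the Numb exon 6 morpholino and at 182 and 236 CPM under the control, again without overlap. Its log2 ratios within the mice were 0.45 and 0.22 and its log2 fold change 0.33 ± 0.16 (SE). Fosb, the member whose truncated form accumulates under repeated stimulation in brain, stood at 325 and 537 CPM under the Numb exon 6 morpholino and at 334 and 409 CPM under the control. Its ratios within the mice had opposite signs, -0.04 in mouse 1 and 0.39 in mouse 2, and the groups overlapped. Fosl1 was lower in both mice by nearly the same amount, at 318 and 419 CPM under the Numb exon 6 morpholino and 363 and 480 CPM under the control. The log2 ratios were -0.19 and -0.20 and the log2 fold change -0.19 ± 0.20 (SE), and the groups overlapped, with mouse 2 above mouse 1 under both morpholinos.

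In the GRCm38 annotation Fos lies at chr12:85473890-85477273 (plus strand), Fosb at chr7:19302696-19310051 (minus), Fosl1 at chr19:5447547-5455946 (plus) and Fosl2 at chr5:32135801-32157842 (plus). Fosl1 cannot be read alone, since 1163 of the 1864 bases of its longest transcript, 62.4%, are covered by exons of Ccdc85b on the opposite strand. The cDNA method does not mark strand, so reads of these genes cannot be told apart there. Ccdc85b stood at 216 and 280 CPM under the Numb exon 6 morpholino and at 266 and 310 CPM under the control, a log2 fold change of -0.22 ± 0.17 (SE). It therefore had the order of Fosl1 over the libraries, and the part of shared reads in either was not tested.

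Among the Jun family, Junb stood at 952 and 1404 CPM under the Numb exon 6 morpholino and at 699 and 1310 CPM under the control. It was higher within each mouse, by log2 ratios of 0.45 and 0.10, but the mice differed by more, and its log2 fold change was 0.23 ± 0.34 (SE). With the mouse as a block it was 0.27 ± 0.10 (edgeR adjusted p = 0.796). Jun stood at 821 and 826 CPM under the Numb exon 6 morpholino and at 743 and 844 CPM under the control, with ratios of 0.14 and -0.03 and a log2 fold change of 0.05 ± 0.11 (SE). Jund, usually the constitutive member, stood at 22.1 and 35.9 CPM under the Numb exon 6 morpholino and at 25.4 and 32.4 CPM under the control. Its ratios were -0.20 and 0.15, and its log2 fold change of 0.0025 ± 0.27 (SE) has no stable sign under other settings.

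Jun (chr4:95049034-95052222, minus strand), Junb (chr8:84974484-84978718, minus) and Jund (chr8:70698949-70700616, plus) have 1 exon in their longest transcript. Jund has the highest GC content of the members, 67.1% in its transcript, against 51.9% to 62.6% in the others. An antisense model, Gm11175, covers 877 of its 1668 bases and held at most 4 estimated counts. The antisense gene Junos overlaps 232 bases of Jun and stood at 0.812 to 1.11 CPM, and Prdx2 overlaps a minor Junb transcript but no base of the longest one.

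Atf3 stood at 664 and 729 CPM under the Numb exon 6 morpholino and at 451 and 628 CPM under the control, without overlap. Mouse 1 had a log2 ratio of 0.56 and mouse 2 of 0.22, and edgeR gave 0.37 ± 0.18 (SE, n = 2 libraries each) and 0.39 ± 0.10 with the mouse as a block (edgeR adjusted p = 0.999 and 0.796). Maff stood at 79.9 and 141 CPM under the Numb exon 6 morpholino and at 80.3 and 121 CPM under the control, with ratios of -0.01 and 0.22. Batf3 had ratios of -0.08 and -0.10 and a log2 fold change of -0.10 ± 0.60 (SE), so at this depth a change of the size seen in the other members could not be told from none. Atf3 (chr1:191170296-191218039, minus strand) and Batf3 (chr1:191097847-191108945, plus) lie on the same chromosome, and Maff lies at chr15:79346621-79359076 (plus).

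**Figure D3:**
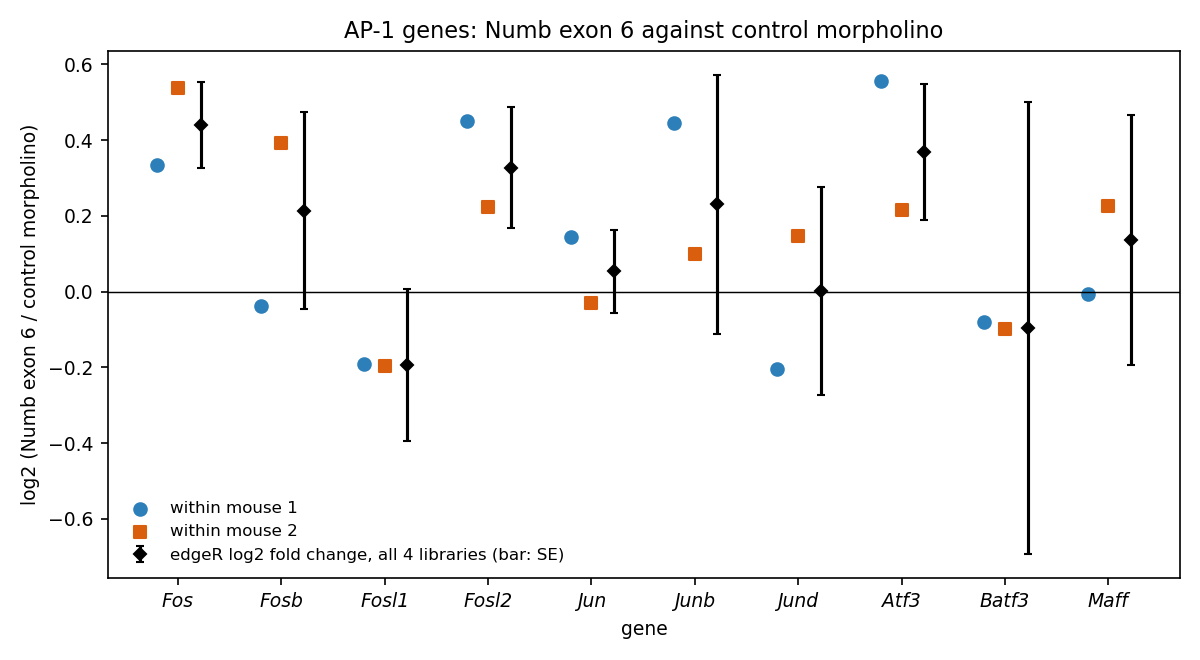
Log2 ratio of Numb exon 6 over control morpholino for each AP-1 gene within mouse 1 (circles) and mouse 2 (squares), and the edgeR log2 fold change over all 4 libraries (diamonds, bars are the SE). Fos, Fosl2, Junb and Atf3 lie above 0 in both mice, and Fosl1 and Batf3 below 0 in both.

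Of the 10 members, edgeR called 0 in either direction, as it did of all 27551 genes (0.0%), and 1 had an unadjusted p under 0.05 (Fos), against 4.16% of all genes. With the mouse as a block it again called 0 (0.0% of all genes), and 5 of the 10 had an unadjusted p under 0.05 (Fos, Fosl1, Fosl2, Junb and Atf3), against 6.09% of all genes. DESeq2 called 65 of all genes and 0 of the 10, with 1 member at an unadjusted p under 0.05, against 5.34% of all genes. Adding the mouse as a block to DESeq2 gave 157 called genes, again 0 of the 10, with 4 members at an unadjusted p under 0.05 (Fos, Fosl2, Junb and Atf3), against 7.15%. In limma-voom 0 genes were called, and 1 member had an unadjusted p under 0.05, against 4.14%. In both mice 4 were higher (Fos, Fosl2, Junb, Atf3) and 2 lower (Fosl1, Batf3), against 28.1% and 27.3% of all genes. On the TPM scale these counts were 7 and 1, as Fosb, Jun and Maff joined the higher ones and Batf3 left the lower ones. The shares of all genes on that scale were 32.1% and 23.0%, so all genes shifted upward as well. Both Numb exon 6 libraries lay above both controls for 3 members (Fos, Fosl2, Atf3), against 17.4% of all genes, and below both for 0, against 17.1%. The median log2 fold change of the 10 was 0.18, and that of all genes 0.005. The counts are a description.

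Most AP-1 transcripts were higher in mouse 2 than in mouse 1. This is 1 animal against 1, so no test was made. Both libraries of mouse 2 lay above both of mouse 1 for 7 of the 10 members (Fosb, Fosl1, Jun, Junb, Jund, Batf3, Maff), against 20.9% of all genes, and below both for 0, against 18.8%. With another library scaling (RLE) Jun left the 7, and the share of all genes was 20.2%. Restricted to 8469 genes with mean log2 CPM not below 3, which leaves out Batf3, the members numbered 6 higher, against 20.3%, and 0 lower, against 28.3%.

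The largest ratios at usable depth were those of Junb and Maff. Junb in mouse 2 was 1.47-fold its level in mouse 1 under the Numb exon 6 morpholino and 1.87-fold under the control. For Maff the ratios of mouse 2 over mouse 1 were 1.76 and 1.5, for Fosb 1.65 and 1.23, and for Jund 1.63 and 1.28, in the same order of morpholinos. Fosl1 was 1.32-fold higher in mouse 2 under either morpholino. Fos differed by 1.15-fold under the Numb exon 6 morpholino and by 1.0-fold under the control, and Jun by 1.01-fold and 1.14-fold, and no other member had ratios this close to 1 under both morpholinos.

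Other transcripts parted the mice as well. Of all genes, 20.9% were higher in both libraries of mouse 2 and 18.8% lower. Of 18 heat shock and dissociation stress genes 8 were higher in both libraries of mouse 2 and 1 lower. All 5 erythroid markers were higher in both libraries of mouse 2, with a summed level of 1532 to 1733 TPM in mouse 2 and 538 to 928 TPM in mouse 1. Of 10 endothelial markers 5 were lower in mouse 2 and 0 higher, with sums of 163 to 164 TPM in mouse 2 and 170 to 256 TPM in mouse 1. Of 8 smooth muscle and pericyte markers 5 were lower and 1 higher, with sums of 145 to 153 TPM in mouse 2 and 182 to 214 TPM in mouse 1. AY036118 together with CT010467.1, both rRNA-like, took 5.00% to 5.06% of the counts in mouse 2 and 6.53% to 8.95% in mouse 1. The part of any of these in the AP-1 difference was not tested.

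**Figure D4:**
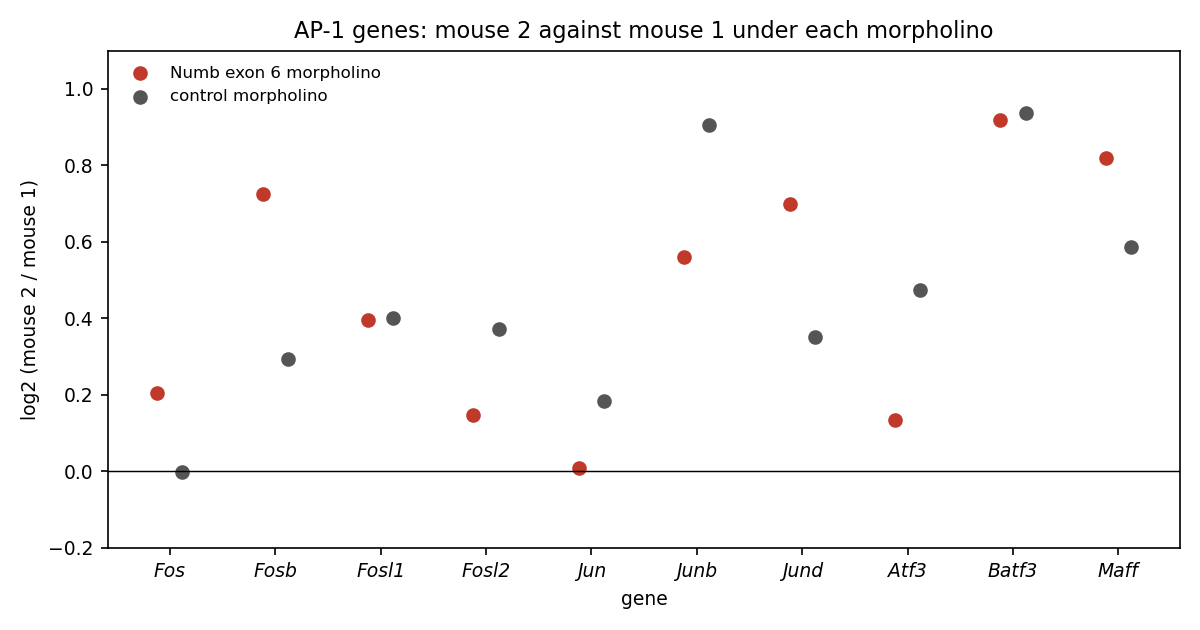
Log2 ratio of mouse 2 over mouse 1 for each AP-1 gene, under the Numb exon 6 morpholino (red) and the control morpholino (grey). Each ratio lies above 0 except that of Fos under the control morpholino, where the mice were level.

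Gene counts and TPM together give the mean transcript length behind each value. Where a gene has several annotated transcripts, different mixtures can give the same mean, so the mean does not name the forms. Fos had a mean length of 2080 and 2084 bases under the Numb exon 6 morpholino and 2071 bases in both controls, close to its longest transcript of 2108. Fosb, with 7 annotated transcripts of up to 3782 bases, had 3475 and 3458 bases under the Numb exon 6 morpholino and 3491 and 3458 under the control. Fosl2 had 5923 and 5955 bases under the Numb exon 6 morpholino and 5951 and 5785 under the control, and Atf3 from 1978 to 1983. Jun and Jund, each with 1 annotated transcript, had 3188 and 1668 bases in every library. Batf3, on few counts, ranged from 873 to 987 bases.

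The other genes of the pathway were read from lists of other basic leucine zipper factors, upstream kinases and factors, feedback genes, targets, other immediate early genes and dissociation stress, and edgeR called 0 of their members in either direction, with or without the mouse as a block. The share called of all genes was 0.0%, and 28.1% of all genes were higher in both animals and 27.3% lower. Of 38 other basic leucine zipper genes 15 were higher under the Numb exon 6 morpholino in both animals and 10 lower, and the median log2 fold change was -0.0076. Creb5, a factor of the Atf2 branch that can pair with Jun, stood at 243 and 250 CPM under the Numb exon 6 morpholino and at 155 and 154 CPM under the control, 0.67 ± 0.10 on the log2 scale (SE; edgeR adjusted p = 0.999). Its difference was smaller in TPM, at 116 and 123 TPM under the Numb exon 6 morpholino and 89.0 and 98.0 TPM under the control. Creb1, the main reader of the cAMP response element, was high in 1 library, with 74.1 and 19.5 CPM under the Numb exon 6 morpholino and 12.5 and 17.5 CPM under the control. The excess of that library was smaller in TPM, at 27.5 and 12.7 TPM under the Numb exon 6 morpholino and 13.2 and 9.82 TPM under the control. Xbp1 and Mafk, the most abundant of the list, had log2 fold changes of 0.09 ± 0.10 and 0.09 ± 0.11 (SE).

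Among 28 upstream genes 10 were higher and 3 lower in both animals (median 0.03). Map2k7, a kinase that activates JNK, the kinase of Jun, stood at 12.1 and 10.5 CPM under the Numb exon 6 morpholino and at 3.33 and 3.67 CPM under the control, a log2 fold change of 1.69 ± 0.20 (SE; edgeR adjusted p = 0.848). The Map2k7 difference was smaller in TPM, at 10.7 and 10.1 TPM under the Numb exon 6 morpholino and 4.09 and 4.29 TPM under the control. Map3k1, a kinase further upstream of JNK, stood at 46.5 and 43.6 CPM under the Numb exon 6 morpholino and at 28.8 and 34.6 CPM under the control (0.51 ± 0.15). Map2k1 and Map2k2, the kinases that activate ERK, had -0.09 ± 0.12 and -0.06 ± 0.11 (SE).

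Feedback genes, which switch off MAP kinases or decay early transcripts, numbered 20, of which 3 were higher and 7 lower in both animals (median -0.06). Dusp1, the phosphatase induced with Fos, was level at 575 and 566 CPM under the Numb exon 6 morpholino and 542 and 577 CPM under the control. Zfp36, which decays early response messages, followed the mice, at 420 and 672 CPM under the Numb exon 6 morpholino and 353 and 688 CPM under the control. Dusp5 was high in the control library of mouse 2 alone, at 99.3 and 108 CPM under the Numb exon 6 morpholino and 110 and 209 CPM under the control. Dusp9 stood at 0.937 and 1.06 CPM under the Numb exon 6 morpholino and at 2.07 and 1.34 CPM under the control.

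Of 30 AP-1 targets 10 were higher and 6 lower in both animals (median 0.03). Cd44, the hyaluronan receptor, stood at 983 and 854 CPM under the Numb exon 6 morpholino and at 1280 and 1256 CPM under the control, a log2 fold change of -0.47 ± 0.11 (SE; edgeR adjusted p = 0.999). Hmox1, haem oxygenase, stood at 6954 and 6147 CPM under the Numb exon 6 morpholino and at 8160 and 8066 CPM under the control, or -0.31 ± 0.10. Cxcl1, a chemokine, followed the mice, with 4189 and 4157 CPM in mouse 2 and 2057 and 2098 CPM in mouse 1, given as Numb exon 6 and control within each.

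The 34 other immediate early genes had 19 higher and 2 lower in both animals (median 0.10). In mouse 2, 21 of the 34 were higher and 3 lower, against 20.9% and 18.8% of all genes. Egr2 stood at 144 and 174 CPM under the Numb exon 6 morpholino and at 107 and 122 CPM under the control, 0.47 ± 0.15 on the log2 scale (SE; edgeR adjusted p = 0.999). Nr4a1 stood at 261 and 315 CPM under the Numb exon 6 morpholino and at 170 and 234 CPM under the control, or 0.51 ± 0.19. Myc had 0.10 ± 0.12, and Nfkbia, the inhibitor of NF-kappa-B, stood at 1173 and 1254 CPM in mouse 2 and at 670 and 665 CPM in mouse 1, as Numb exon 6 and control. Of 18 heat shock and dissociation stress genes 7 were higher and 4 lower in both animals (median 0.02). In mouse 2, 8 of the 18 were higher and 1 lower, against the same shares of all genes, 20.9% and 18.8%. Dnaja4, Hspb1, Hspa5 and Hspa8 had log2 fold changes of 0.61 ± 0.15, 0.35 ± 0.13, 0.01 ± 0.09 and -0.26 ± 0.13 (SE).

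**Figure D5:**
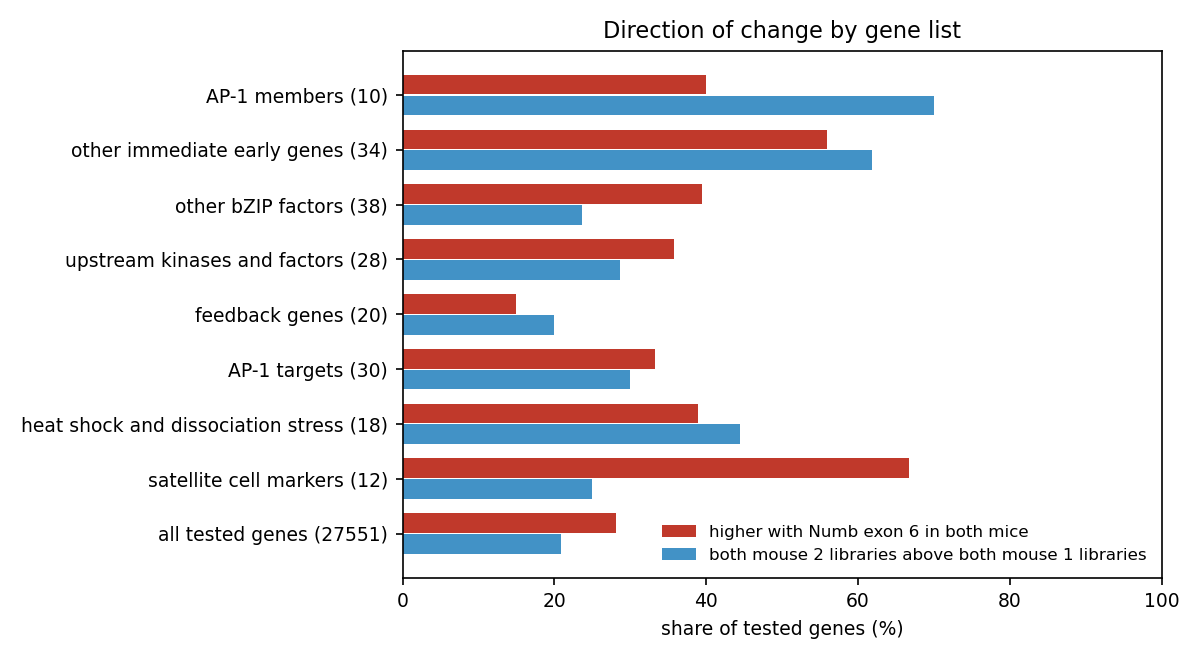
Share of the tested genes of each list (number in brackets) that were higher under the Numb exon 6 morpholino in both mice (red) and whose mouse 2 libraries both exceeded both mouse 1 libraries (blue). For AP-1 members the shares are 40% and 70%, for other immediate early genes 55.9% and 61.8%, and for all tested genes 28.1% and 20.9%.

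All 12 satellite cell markers were detected, with summed levels of 12604 and 12749 TPM under the Numb exon 6 morpholino and 10825 and 11694 TPM under the control. In both mice 8 were higher and 1 lower, against 28.1% and 27.3% of all genes. Pax7, whose regulatory sequence drives the transgene, stood at 50.9 and 59.7 TPM under the Numb exon 6 morpholino and at 37.0 and 51.4 TPM under the control. Sdc4 and Myod1, the most abundant, had log2 fold changes of 0.10 ± 0.09 and 0.10 ± 0.13, and Myf5 and Chodl 0.72 ± 0.24 and 0.24 ± 0.11 (SE). Estimated counts summed to between 230431665 and 355411827 per library, but they derive from coverage and are not depth in fragments. Numb stood at 60.3 and 58.7 CPM under the Numb exon 6 morpholino and at 44.6 and 53.8 CPM under the control, and counts per gene say nothing of its exon 6.

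Markers of other cells were also compared between the morpholinos, each pair of values below giving the Numb exon 6 libraries against the control libraries, mouse 1 before mouse 2. Of all genes, 28.1% were higher in both mice and 27.3% lower. These counts are on CPM, while sums of markers, those of satellite cells included, are in TPM. On log2(TPM + 1) the median log2 ratio was 0.07 and 0.02 for genes with mean log2 CPM not below 3. On CPM that median was 0.01 and -0.0038, so part of a small rise in a sum can come from the scale. Leukocyte markers summed to 47.7 and 136 TPM under the Numb exon 6 morpholino and to 36.4 and 38.5 TPM under the control, with 12 of 15 higher in both mice and 2 lower, and none of them was at 0 in every library. Their median log2 fold change was 1.38, the largest of the lists. Of the 15, edgeR gave 4 an unadjusted p under 0.05, against 4.16% of all genes, and called 0, against 0.0%. S100a8 and S100a9, neutrophil genes, made up most of the sum in the Numb exon 6 library of mouse 2, at 46.5 and 36.01 TPM there. Cd68, the most abundant, stood at 10.3 and 11.9 CPM against 10.1 and 11.8 CPM, and S100a8 at 0.537 and 11.5 CPM against 0.473 and 1.08 CPM. Lyz2 stood at 8.24 and 14.2 CPM against 4.32 and 4.21 CPM, and Fcer1g at 0.899 and 0.650 CPM against 0.192 and 0.160 CPM. Fcer1g rested on few estimated counts, 288 and 152 against 67 and 49. Glial markers summed to 126 and 150 TPM against 71.9 and 85.3 TPM (4 of 8 higher, 0 lower), and endothelial markers to 256 and 164 TPM against 170 and 163 TPM (5 of 10 higher, 0 lower). Erythroid markers summed to 928 and 1733 TPM against 538 and 1532 TPM, with all 5 higher in both mice. The median log2 fold change was 0.46 for glial, 0.34 for erythroid and 0.31 for endothelial markers, and between 0.08 and 0.21 for the other marker lists.

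In the remaining lists, again as Numb exon 6 against control libraries, fibro-adipogenic markers summed to 1865 and 1744 TPM against 1759 and 1642 TPM (5 of 10 higher, 1 lower), and smooth muscle and pericyte markers to 214 and 153 TPM against 182 and 145 TPM (6 of 8 higher, 0 lower). Tenocyte markers summed to 66.3 and 59.2 TPM against 52.1 and 52.3 TPM (4 of 6 higher, 1 lower), and myofibre markers to 172 and 180 TPM against 154 and 160 TPM (4 of 8 higher, 1 lower). Of each list the genes with the highest TPM or the smallest p were Gsn, Col3a1, Lum and Dcn (fibro-adipogenic), with log2 fold changes from -0.07 to 0.35, and Tek, Fabp4, Emcn and Egfl7 (endothelial), from 0.14 to 0.77. They were Pmp22, Mal and Mbp (glial), from 0.11 to 0.97, Acta2, Tagln, Myh11 and Kcnj8 (smooth muscle and pericyte), from 0.02 to 0.52, and Thbs4, Fmod, Comp and Mkx (tenocyte), from -0.96 to 0.47. In myofibre and erythroid lists they were Actn3, Atp2a1 and Myh4, from -1.87 to 0.21, and Hba-a1, Hbb-bs, Alas2 and Hbb-bt, from 0.33 to 0.62. The part of such cells in the AP-1 values was not tested.

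Genes with the pattern most like a member over the 4 libraries were ranked by the root mean square difference of log2 CPM after centring, among 8469 genes. For Fos they were Zfp945, Commd7 and Cyp27a1, at differences of 0.021, 0.0263 and 0.0292, and for Junb they were Cish, Icam1 and Mif4gd, at 0.0262, 0.0364 and 0.0378. Icam1 stood at 101 and 143 CPM under the Numb exon 6 morpholino and at 73.6 and 143 CPM under the control, level between the morpholinos in mouse 2. With 4 libraries many genes can share a pattern.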

How the data were processed

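Alignment and assembly tools were HISAT2 2.1.0 and StringTie 1.3.6 on GRCm38, per the submitters' processing notes; per the labels, 5 ng of RNA per sample went into SMART-Seq2 cDNA, which is not stranded. The authors' deposited estimated counts are whole numbers per gene derived from coverage, and TPM, as deposited, divides abundance by transcript length. Neither the step from coverage to counts nor the annotation release is stated in the labels. Among genes with 1 transcript, from 99.96% to 100% had a ratio of count to TPM that matched their length to within 1% after a library constant, which gave the mean transcript lengths. Coordinates and transcripts came from GENCODE vM21 (GRCm38), promoters from RefSeq (GRCm38.p6).

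The test was edgeR 4.0.16 in R 4.3.3 (quasi-likelihood, robust, TMM, default filter by group, no block) on all genes, with Benjamini-Hochberg adjustment at 0.05. The SE was derived from the quasi-likelihood statistic, and ratios within a mouse used log2 CPM with a prior count of 2. Equal replicate numbers mark 1 animal per the labels, and the number therefore pairs the libraries; deviations from group means correlated at 0.06 over all tested genes and at 0.40 over genes with mean log2 CPM not below 3. Alternatives were the mouse as a block, DESeq2 1.42.0, limma 3.58.1 (voom, and log2(TPM + 1) or log2(TPM + 0.1)), RLE factors, other filters, counts divided by 4 (low counts pile up at multiples of 4), removal of rRNA-like and mitochondrial genes, and removal of each library. The tools were checked on simulated counts.

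The members and the 15 other lists, 9 of them cell type markers, were chosen with earlier results of these data known. Besides the members and Numb, the genes named were the 2 with the highest mean TPM and the 2 with the smallest p of each list and the 3 most like Fos and Junb. Pax7, S100a9, the genes that overlap a member and the rRNA-like genes were named after values were seen.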

Additional observations from a re-analysis of the deposited data

How the results depend on the processing

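Of 149 log2 fold changes of members under the alternatives, 130 kept their direction, none was called, and 19 reversed; Fos, Fosl2 and Atf3 kept theirs in every setting run, at 0.33 to 0.54, 0.15 to 0.52 and 0.15 to 0.62 without 1 library. Without 1 library each, values were -0.19 to 0.53 for Fosb, -0.41 to 0.0099 for Fosl1, -0.0358 to 0.14 for Jun, -0.15 to 0.74 for Junb, -0.39 to 0.31 for Jund, -0.64 to 0.45 for Batf3 and -0.33 to 0.49 for Maff. The reversals came without the control library of mouse 1 (Jun, Junb, Jund, Maff), without the Numb exon 6 library of mouse 2 (Fosb, Junb, Jund, Maff), without the control library of mouse 2 (Fosl1, Batf3) and on removal of the Numb exon 6 library of mouse 1 (Batf3); the cause was not tested. Jund, near 0, also reversed with the replicate block (-0.0287), RLE factors (-0.0001), no filter (-0.0078), a filter at CPM 5 in 2 libraries (-0.0015), DESeq2 (-0.0001), DESeq2 with the block (-0.0301), limma-voom (-0.0453) and without rRNA-like and mitochondrial genes (-0.0005). At the CPM 5 filter Batf3 was not tested.

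Over all genes edgeR called 0 and also 0 with the mouse as a block; it called 10 without a filter, 1 at the CPM 5 filter and 0 to 1 without 1 library, DESeq2 called 65, and DESeq2 with the block 157. None was a member; the cause of these differences was not tested. Members higher and lower in both mice numbered 7 and 1 on log2(TPM + 1) and the same on log2(TPM + 0.1). Counts over both mice have no value without a library. The counts of members without overlap between the morpholinos, chosen after the data were seen, held at 3 and 0 under every scaling run, while the shares of all genes were 17.4% and 17.1% on CPM and 20.5% and 14% on either TPM scale. The SE of the test without a block takes in the difference between the mice.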
